A study of Rattus norvegicus and Bos taurus with 12 samples.

Results

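The immediate early and activator protein 1 (AP-1) genes described here were 10 genes taken by symbol: Fos, Fosb, Jun, Junb, Jund, Fosl1, Fosl2, Atf3, Egr1 and Ier3. Of these, 6 were found in at least 1 of the 2 deposited gene tables, which together list 7989 different symbols. In adult rat ventricular myocytes (ARVM), 5 of the 7052 listed genes were members (Fos, Fosl1, Fosl2, Junb and Atf3), and in bovine cardiac fibroblasts (Cfib) 2 of the 2115 listed genes were members (JUN and ATF3). Atf3 was the 1 member listed in both, and 4 members (Fosb, Jund, Egr1 and Ier3) were listed in neither and are not analysed further here.

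RNA of 12 libraries was sequenced, 3 in each of 4 groups, to compare Cfib of calves with pulmonary hypertension (PH) with those of control (CO) calves, and ARVM before and after exposure to medium conditioned by PH Cfib (PH-CM). Cfib came from the right ventricle of neonatal calves, of which the PH animals had lived under lowered air pressure and the CO animals at the altitude of Denver. Cfib of both groups were low passage cells that had grown to confluence with fetal bovine serum and were then held without serum. ARVM came from healthy adult Sprague Dawley rats, by collagenase perfusion of the heart, and were either freshly isolated (libraries con4, con5 and con6) or held for 7 days in PH-CM (libraries ha2, ha209 and ha211). No ARVM cultured without PH-CM were analysed here, so the effects of PH-CM, of time in culture and of recovery from the isolation cannot be told apart. The labels describe the treatment of every sample as serum from cows of low or high altitude, and the group names used here follow the published description. In what follows n counts libraries. For Cfib, the published study describes fibroblasts of 3 animals in each group. Nothing in the labels says whether the ARVM libraries were separate animals, so the p-values for ARVM measure the spread between these libraries only.

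Immediate early genes are transcribed within minutes of a stimulus, without new protein synthesis, and many of their mRNAs and proteins are short lived. Proteins of the FOS family (FOS, FOSB, FOSL1, FOSL2) pair through a leucine zipper with proteins of the JUN family (JUN, JUNB, JUND) to form AP-1, which binds DNA and regulates genes of growth, matrix turnover and inflammation, and JUN family proteins can also pair with each other and with ATF3. Enzymatic dissociation of tissue is known as a stimulus that raises Fos and Jun transcripts in freshly isolated cells.

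Both tables hold only genes that the authors had selected for a difference between the same groups. With limma on log2(value + 1) and Benjamini-Hochberg adjustment over all listed genes, 97.6% of the listed ARVM genes passed an adjusted p of 0.05 (53.9% higher and 43.7% lower in PH-CM), as did 97.5% of the listed Cfib genes (58.2% higher and 39.4% lower in PH). The groups did not overlap in 100% of the listed genes of either table. The share of members called is therefore no result about the members, and a member that is not listed is not shown to be unchanged. The ARVM values are read counts divided by a size factor per library, from which the whole reads were recovered (12122463 to 18842171 reads per library on the listed genes). The Cfib values have no named unit, no whole reads could be recovered from them, and the depth of the Cfib libraries is unknown. Cardiomyocyte markers were high in freshly isolated ARVM, and of 8 fibroblast markers COL1A2 and POSTN were listed for Cfib, where they had summed levels of 1873 to 2538 in CO and 6028 to 6331 in PH libraries.

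In ARVM, transcripts of Fos, Junb and Fosl1 were lower in PH-CM than in freshly isolated cells, and that of Atf3 was higher, so 3 of 5 listed members fell and 1 rose, beside the 43.7% and 53.9% of all listed genes. Fos had the largest change of the members at 48.2% of its freshly isolated level, followed by Junb at 58.8% and Fosl1 at 64.5%, and Atf3 reached 154% of its freshly isolated level. Fosl2 had a slightly higher mean in PH-CM and did not pass the limma test, although the authors had selected it, like all listed genes, for a difference. Of the listed genes, 45.5% had a larger absolute log2 fold change than Fos, 59.8% than Junb, 67% than Fosl1 and 69.1% than Atf3.

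Within the FOS family, Fos, whose protein is the founding partner of JUN, was at 1106, 968 and 995 normalized counts in con4, con5 and con6 and at 430.3, 638 and 409.6 in ha2, ha209 and ha211. The freshly isolated libraries lay close together, and ha209 stood above the other PH-CM libraries without reaching the freshly isolated ones. The mean went from 1023 ± 73.2 to 493 ± 127 (SD, n = 3), on 484 to 963 reads per library, and the log2 fold change was −1.08 ± 0.17 (SE, adjusted p = 0.000506, limma). Fosl1, which encodes FRA-1, a FOS protein without the strong activation domain of FOS, was at 453, 493 and 494 normalized counts in freshly isolated ARVM and at 279, 380.5 and 268 in PH-CM ARVM. The groups did not overlap, and ha209 was again the highest PH-CM library. Its mean went from 479.7 ± 23.5 to 309 ± 61.9 (SD, n = 3), on 286 to 478 reads per library, with a log2 fold change of −0.65 ± 0.15 (SE, adjusted p = 0.00442, limma). Fosl2, which encodes FRA-2, was at 188, 200.3 and 228 normalized counts in freshly isolated ARVM and at 247, 237 and 236 in PH-CM ARVM. The highest freshly isolated library and the lowest PH-CM library of Fosl2 were 3.43% apart, on 119 to 326 reads per library. Its log2 fold change of 0.23 had a 95% interval from −0.11 to 0.56 (adjusted p = 0.161, limma), and 97.1% of the listed genes had a larger absolute change.

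Junb, the JUN family member that was listed for ARVM, encodes a partner that activates AP-1 sites less strongly than JUN. It was at 7099, 8834 and 8091 normalized counts in freshly isolated ARVM and at 4525, 4888 and 4716 in PH-CM ARVM. All PH-CM libraries lay below all freshly isolated ones, and they varied less, with a coefficient of variation of 3.86% against 10.9%. The log2 fold change was −0.76 ± 0.08 (SE, adjusted p = 8.19e-05, limma), on 4486 to 8247 reads per library.

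Atf3, a stress-induced bZIP factor that can repress its targets as a homodimer, rose in PH-CM. It was at 1684, 1832 and 2095 normalized counts in freshly isolated ARVM and at 2648, 3512 and 2482 in PH-CM ARVM. Every PH-CM library lay above every freshly isolated one, and ha209 was highest. The mean went from 1870.2 ± 208 to 2881 ± 553 (SD, n = 3), with a log2 fold change of 0.61 ± 0.14 (SE, adjusted p = 0.00345, limma), and 69.1% of the listed genes had a larger absolute change. With 3 libraries per group, a two-sided exact permutation test of a single gene cannot give a p under 0.1. Each of the 5 members reached that value, as does any gene whose groups do not overlap, here 100% of the listed genes.

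**Figure D1:**
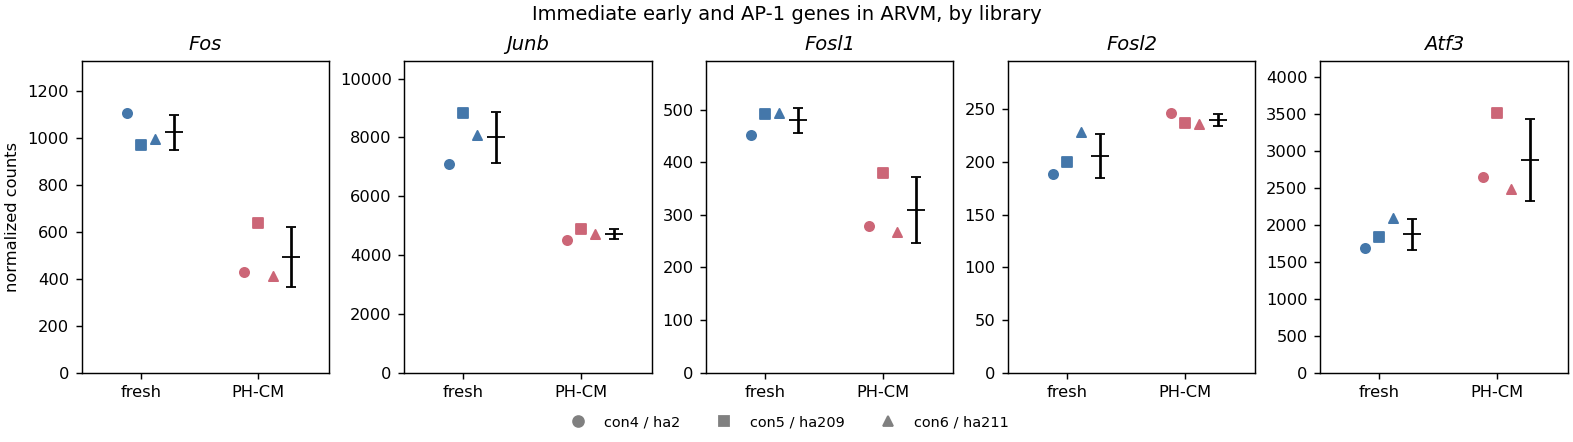
Normalized counts (linear axes from 0) of the 5 listed members in freshly isolated (blue) and PH-CM (red) ARVM, 1 point per library, with the mean and SD of each group (n = 3) in black and marker shapes that name libraries and do not pair them. Fos, Junb and Fosl1 were lower and Atf3 higher in all PH-CM libraries, the groups of Fosl2 were 3.43% apart, and ha209 stood above its group for Fos, Fosl1 and Atf3.

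Among the members listed for ARVM, upstream sequence was held for Junb, Fosl1 and Fosl2. It is shown because immediate early genes are classically induced through short elements close to their start. Each line gives the 250 bases before the gene start in RefSeq, assembly GRCr8, in the direction of the gene, whereas the authors aligned to rn6. Capitals mark matches, on either strand, to the AP-1 site TGACTCA, the cyclic AMP response element TGACGTCA or its core TGACG (which also lies within the full element), the TATA box TATAAA, the CCAAT box, and the CArG box, the site bound by serum response factor.
Junb (chr19:40080876-40081125, plus strand): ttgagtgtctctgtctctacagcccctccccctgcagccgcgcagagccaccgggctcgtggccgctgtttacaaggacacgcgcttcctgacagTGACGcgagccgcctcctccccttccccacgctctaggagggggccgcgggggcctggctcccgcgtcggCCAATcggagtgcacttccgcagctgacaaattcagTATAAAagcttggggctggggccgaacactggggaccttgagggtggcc
Fosl1 (chr1:212183635-212183884, plus strand): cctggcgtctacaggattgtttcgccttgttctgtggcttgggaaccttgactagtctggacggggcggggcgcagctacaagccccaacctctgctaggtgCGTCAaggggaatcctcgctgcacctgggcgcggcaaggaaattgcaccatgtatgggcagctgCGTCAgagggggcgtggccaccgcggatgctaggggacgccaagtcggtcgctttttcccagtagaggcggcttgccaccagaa
Fosl2 (chr6:30039270-30039519, minus strand): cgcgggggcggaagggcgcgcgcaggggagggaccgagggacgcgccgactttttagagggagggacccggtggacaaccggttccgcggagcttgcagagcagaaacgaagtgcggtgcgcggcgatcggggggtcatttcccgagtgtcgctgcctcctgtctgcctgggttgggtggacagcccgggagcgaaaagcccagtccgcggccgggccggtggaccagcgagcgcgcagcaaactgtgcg

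Counted from the gene start, Junb held the core of the cyclic AMP response element at −155 to −151, the CCAAT box at −85 to −81 and the TATA box at −49 to −44. Fosl1 held the core on the opposite strand at −148 to −144 and at −84 to −80, and the window of Fosl2 held none of the motifs searched. Among 33465 rat promoters of the same length, 18.2% held the core, 1.59% the full element, 4.05% the AP-1 site, 12.9% the TATA box, 34.0% the CCAAT box and 1.5% the CArG box. These matches describe letters in the window and not binding sites.

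Ratios of 2 genes within a library do not depend on the scaling between libraries, although these genes, like all listed genes, had been selected for a group difference. The groups of each gene did not overlap, so a ratio of a higher to a lower gene had to separate them. Its separation is therefore no result. Of the ARVM ratios given here, only those of Fos to Fosl1 and of Fos to Junb were free to overlap. The log2 ratio of Atf3 to Fos was 0.61, 0.92 and 1.07 in con4, con5 and con6 and 2.62, 2.46 and 2.60 in ha2, ha209 and ha211. The PH-CM libraries lay far above the freshly isolated ones, and the mean went from 0.87 ± 0.24 to 2.56 ± 0.09 (SD, n = 3), a difference of 1.69 on the log2 scale. The ratio of Atf3 to Junb was 1.37 higher on the same scale, and that of Fosl2 to Fosl1 was 0.88 higher. The ratio of Fosl2 to Fos went from −2.32 ± 0.22 to −1.01 ± 0.36 (SD, n = 3). The ratio of Fos to Fosl1 was lower in PH-CM, from 1.09 ± 0.17 to 0.66 ± 0.07 (SD, n = 3), without overlap. The ratio of Fos to Junb was −2.68, −3.19 and −3.02 in freshly isolated and −3.39, −2.94 and −3.53 in PH-CM libraries, so its groups overlapped and a difference between the falls of these 2 genes was not resolved.

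**Figure D2:**
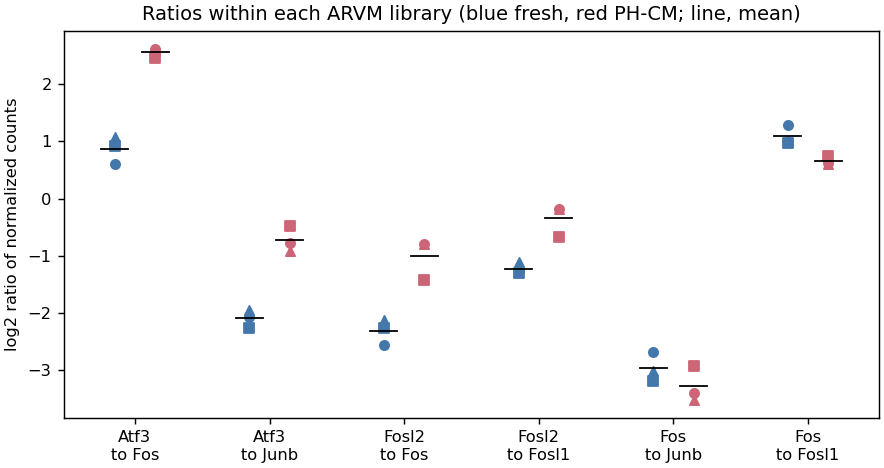
Log2 ratio of normalized counts between 2 members within each ARVM library (blue freshly isolated, red PH-CM, black line the mean of 3 libraries). The ratios of Atf3 to Fos and to Junb and of Fosl2 to Fos and to Fosl1 were higher in all PH-CM libraries. This had to follow from the opposite directions of their genes, whose groups did not overlap. The ratio of Fos to Junb overlapped between the groups.

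The PH-CM libraries differed among themselves in the same members. Library ha209 was the highest PH-CM library for 4 of 5 members (Fos, Fosl1, Junb and Atf3) and for 32% of all listed genes. Relative to the mean of ha2 and ha211, it was higher by 0.60 (log2) for Fos, a value that 3.02% of all listed genes exceeded. The corresponding differences were 0.47 for Fosl1 (exceeded by 4.92% of genes), 0.45 for Atf3 (5.37%), 0.08 for Junb (30%) and −0.02 for Fosl2 (47.8%). Library ha209 was also highest for 5 of 8 listed genes among other immediate early transcription factors, for 13 of 25 immediate early effectors and for 7 of 10 heat shock genes, and for 3 of 12 bZIP partners, 3 of 16 MAP kinase and serum response factor regulators and 2 of 12 known AP-1 targets. Without this library the log2 fold change was −1.28 for Fos, −0.81 for Fosl1 and 0.46 for Atf3, and all 3 calls remained.

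Markers of cell types moved with the groups in ARVM. All 7 listed cardiomyocyte markers fell, from 1003580 to 1042500 normalized counts in sum per freshly isolated library to 76761 to 90944 per PH-CM library. All 8 fibroblast markers rose, with sums of 1427 to 1953 and 86870.3 to 129619. All 6 listed macrophage markers rose as well (sums of 183 to 208.7 and 6698 to 9933), all 7 endothelial markers fell (8701 to 10352 and 3192 to 3779.7), and of 7 smooth muscle and pericyte markers 5 rose and 2 fell (3786 to 4468 and 16813 to 22014). No listed marker was at 0 in all libraries of an ARVM group. The published study describes dedifferentiation of these myocytes in PH-CM. By staining, they kept α-actinin and gained α-smooth muscle actin (Acta2) and periostin (Postn). The published staining did not cover the other fibroblast markers or the macrophage markers. In bulk libraries, fewer cells of a type and less RNA per cell cannot be told apart. The part of cell composition in the values of the members and of the lists below was not tested.

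In Cfib, both listed members were lower in PH than in CO, beside 39.4% of all listed genes. On the deposited signal, JUN, the main activating partner in AP-1, was at 32.7, 40.2 and 41.2 in CO Cfib 1, 2 and 3 and at 25.4, 26.2 and 25.4 in PH Cfib 1, 2 and 3. CO Cfib 1 lay nearest to the PH libraries, which were almost equal to each other. The mean went from 38.02 ± 4.66 to 25.7 ± 0.453 (SD, n = 3), with a log2 fold change of −0.54 ± 0.10 (SE, adjusted p = 0.00188, limma). ATF3 was at 47.2, 50.1 and 43.4 in CO Cfib and at 21.6, 27.4 and 23.2 in PH Cfib. Its lowest CO library was 58.4% above its highest PH library, a wider gap than the 24.7% of JUN. The mean of ATF3 went from 46.9 ± 3.34 to 24.1 ± 3.03 (SD, n = 3), with a log2 fold change of −0.94 ± 0.10 (SE, adjusted p = 0.000239, limma).

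Of the listed Cfib genes, 37.1% had a larger absolute log2 fold change than ATF3 and 62.9% a larger one than JUN. The log2 ratio of ATF3 to JUN was 0.53, 0.32 and 0.08 in CO Cfib and −0.24, 0.07 and −0.13 in PH Cfib, so the groups of the ratio were apart by a margin much smaller than their spread. Both members were highest among the PH libraries in PH Cfib 2, as were 30% of all listed genes. The PH libraries resembled each other more than the CO libraries did, with a median coefficient of variation per gene of 5.01% against 13.7%. With the PH libraries averaged into 1 sample, a setting chosen after seeing the data in which the lone sample is assumed to vary like the CO libraries, the log2 fold changes were −0.93 for ATF3 (adjusted p = 0.0124, limma) and −0.54 for JUN (adjusted p = 0.0650, limma). The call of JUN was thus lost with its log2 fold change as before and fewer samples in the test, where 49.1% of all listed Cfib genes passed (25% higher and 24.1% lower). A median-of-ratios rescaling of the libraries shifted the median log2 fold change of all listed Cfib genes by −0.26, with 80.8% of genes called (39.7% higher and 41.1% lower), and the share of higher genes among the calls went from 59.6% to 49.1%. JUN and ATF3 were lower there too, at −0.82 and −1.22. This rescaling moves the median of the listed genes toward 0 by construction. In a table of genes selected for a difference, it cannot decide whether the deposited scaling is right.

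Markers moved with the Cfib groups as well. Both listed fibroblast markers rose, as did 5 of 5 listed smooth muscle and pericyte markers (sums of 78.6 to 114 in CO and 219.6 to 229 in PH) and 3 of 3 listed macrophage markers (2.02 to 2.36 and 7.31 to 8.22), of which C1QA and C1QB were listed at 0 in CO. No cardiomyocyte or endothelial marker was listed. The part of cell composition in the values of JUN, ATF3 and the Cfib genes of the lists below was not tested.

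**Figure D3:**
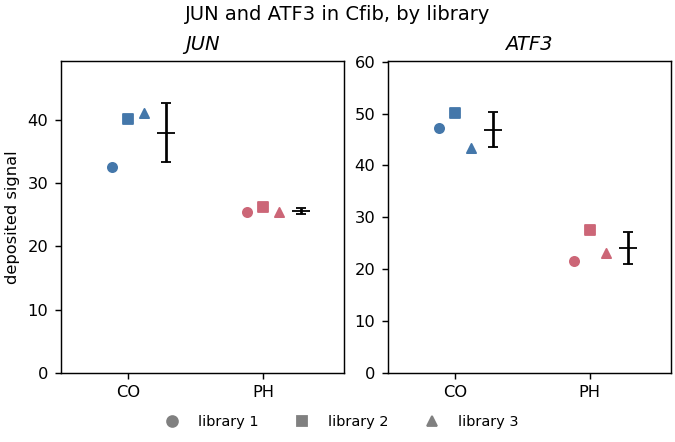
Deposited signal (linear axes from 0) of JUN and ATF3 in CO (blue) and PH (red) Cfib, 1 point per library, with the mean and SD of each group (n = 3) in black. All PH libraries lay below all CO libraries, with a gap of 24.7% for JUN and 58.4% for ATF3.

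Atf3 was higher in PH-CM ARVM and lower in PH Cfib. The comparisons differ in species, cell type, exposure and normalization, and a difference between them was not tested. Of 18 genes of the member and pathway lists that were listed in both tables, 10 had the same sign and 8 the opposite sign, beside 55.7% and 44.3% of the 1178 symbols listed in both. Dusp1, a phosphatase that inactivates MAP kinases, was higher in ARVM and lower in Cfib, as Atf3 was, with log2 fold changes of 1.12 and −0.92. So was Plk2, an early-response kinase, at 1.10 and −1.61. Thbs1, a matrix glycoprotein (4.32 and 1.70), Ctgf, a matricellular protein (2.38 and 1.68), and Dusp6, a phosphatase of ERK (1.82 and 0.96), were higher in both.

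**Figure D4:**
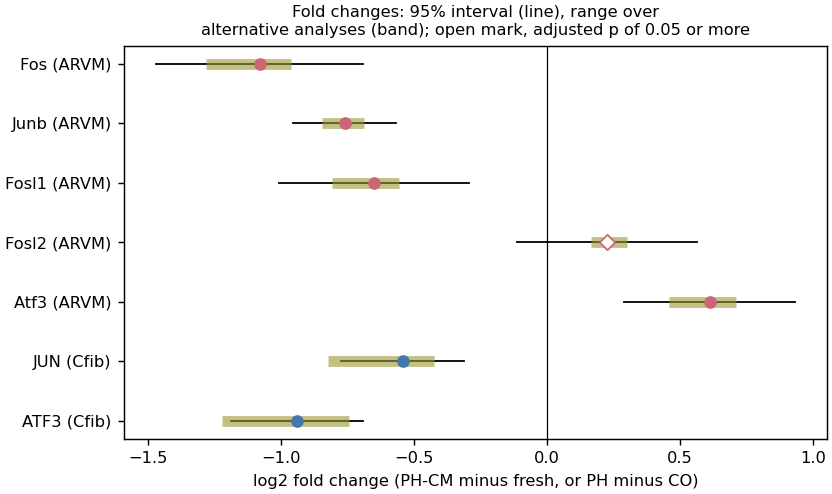
Log2 fold change of each listed member in ARVM (red, PH-CM minus freshly isolated) and Cfib (blue, PH minus CO), on log2(value + 1), with the 95% interval as a line and the range over the alternative analyses as a band. All values kept their sign in every alternative run, and Fosl2, drawn as an open mark, had an interval from −0.11 to 0.56.

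Of 19 other immediate early transcription factors, 11 were not listed for ARVM, and of the 8 listed 6 rose and 2 fell in PH-CM, beside 53.9% and 43.7% of all listed genes. Their median log2 fold change was 0.99 beside 0.37 over all listed genes, and no list was tested against the rest. The same shares of 53.9% higher and 43.7% lower stand beside the ARVM counts of the lists that follow. Those for Cfib are 58.2% higher and 39.4% lower. Egr2, a zinc finger factor of the family of Egr1, was at 13.4 to 20.6 normalized counts in freshly isolated and at 255 to 446 in PH-CM ARVM, a log2 fold change of 4.24. Klf4, a zinc finger factor, rose from 507 ± 69.3 to 1159 ± 44.8 normalized counts (SD, n = 3), and Egr3 rose at low counts, from 3.18 ± 3.21 to 13.5 ± 4.03. Myc, a growth regulator (3173 ± 243 to 1986 ± 309), and Maff, a small MAF protein (3825 ± 188 to 2215 ± 61.3), fell. In Cfib, ID2, an inhibitor of basic helix-loop-helix factors, was the 1 gene of this list that was listed, and its deposited signal rose from 34.3 ± 3.54 to 49.3 ± 1.49 (SD, n = 3).

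Among effectors and feedback genes of the immediate early response, 25 of 37 were listed for ARVM, of which 16 rose and 9 fell, and the median log2 fold change was 0.90. Thbs1 (4.32), Gdf15, a stress cytokine (2.52), and Gem, a small GTP-binding protein (2.41), had the largest log2 fold changes upward. Hbegf, a ligand of the epidermal growth factor receptor, fell from 1038 ± 125 to 262 ± 63.6 normalized counts (SD, n = 3), Sgk1, a serum-induced kinase, from 1998 ± 26.7 to 611 ± 21.8, and Socs3, a feedback inhibitor of cytokine signaling, from 2032 ± 149.7 to 739 ± 55.95. Dusp4 and Dusp6, phosphatases induced by ERK signaling and named after their values were seen, were at 51.4 to 61.7 and 568 to 746 normalized counts in freshly isolated ARVM and at 206 to 261 and 2213 to 2368 in PH-CM ARVM. In Cfib, 11 of the 37 were listed, 6 higher and 5 lower. The deposited signal of PLK2 fell from 54.9 ± 7.63 to 17.2 ± 1.49 (SD, n = 3), that of DUSP1 from 97.5 ± 10.5 to 50.8 ± 0.863 and that of NFKBIA, the inhibitor of NF-κB, from 142 ± 23.1 to 84.4 ± 18.2. The largest log2 fold changes upward were those of THBS1 (1.70), CTGF (1.68) and DUSP6 (0.96).

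Of 24 bZIP genes whose products pair or compete with FOS, JUN or ATF proteins, 12 were listed for ARVM, 8 higher and 4 lower in PH-CM, around a median of 0.77 (log2). Cebpa, a differentiation factor, rose from 12.1 ± 2.32 to 75.5 ± 16.01 normalized counts (SD, n = 3), Maf from 38.7 ± 13.2 to 180.4 ± 33.3, and Batf, which lacks an activation domain of its own, from 5.97 ± 5.21 to 25.5 ± 8.62. Mafk, a small MAF protein, fell from 6951 ± 156 to 3055 ± 215 and Crem, a cyclic AMP responsive factor, from 787 ± 103 to 356 ± 15.5, and Atf7 had a log2 fold change of −0.70. Jdp2, a JUN dimerization protein that represses AP-1 and was named after its values were seen, was at 115 to 152 normalized counts in freshly isolated and at 304 to 382 in PH-CM ARVM. In Cfib, 8 of the 24 were listed, 7 higher and 1 lower (BATF2), among them MAFK with a deposited signal from 14.9 ± 3.30 to 27.8 ± 2.55 and ATF5 from 95.99 ± 14.1 to 158 ± 14.1 (SD, n = 3). Under the median-of-ratios rescaling, 4 of these 8 were called higher and 1 lower, and the sign of NFE2L2 turned.

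Of 31 MAP kinases and regulators of the serum response factor pathway, 16 were listed for ARVM, 6 higher and 10 lower, around a median of −0.51 (log2). Elk1, a ternary complex factor that drives Fos transcription, fell from 1135 ± 45.1 to 699 ± 11.8 normalized counts (SD, n = 3). Map2k3 and Map2k4, kinases upstream of p38 and JNK, fell from 1364 ± 89.9 to 699 ± 196 and from 346 ± 76.1 to 207 ± 10.99. Rps6ka1, an ERK-activated kinase, rose from 57.9 ± 13.1 to 258 ± 44.5 and Rps6ka4 from 367 ± 64.1 to 612 ± 69.8. Mapk13, which encodes a p38 kinase, was unread in freshly isolated ARVM and at least 21.5-fold higher in PH-CM, a bound set against 3 reads over the group that covers counting error only. In Cfib, MAPK8, which encodes JNK1, and RPS6KA4 were listed, both higher, by 0.33 and 0.26 (log2), and under the median-of-ratios rescaling neither passed and the sign of RPS6KA4 turned.

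Of 18 known AP-1 target genes, 12 were listed for ARVM, 9 higher and 3 lower, around a median of 1.16 (log2). Spp1, which encodes osteopontin, rose from 218 ± 7.41 to 3387 ± 776 normalized counts (SD, n = 3) and Timp1, an inhibitor of matrix proteases, from 915 ± 148 to 4618 ± 732. Mmp12, a macrophage elastase, was unread in freshly isolated ARVM and at least 635-fold higher in PH-CM, against the same floor. Il6, an inflammatory cytokine, was at 517 to 736 normalized counts in freshly isolated and at 64.3 to 65.04 in PH-CM ARVM, and Hmox1, a heme-degrading enzyme, fell from 31492 ± 1202 to 17879.9 ± 5981. Mmp3, a matrix protease, was at 41.1, 47.1 and 15.5 in freshly isolated and at 0, 11.2 and 0 in PH-CM ARVM. Spp1 and Mmp12 are known products of macrophages and Timp1 of fibroblasts, cell types whose markers rose, and their part was not tested. In Cfib, 3 of the 18 were listed, MMP9 and MMP12 higher and PLAU, the urokinase plasminogen activator, lower, with a deposited signal from 54.6 ± 4.24 to 37.5 ± 4.33 (SD, n = 3).

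Heat shock and metallothionein genes, which are known to accompany Fos and Jun in dissociated cells, moved in both directions. Of 16, 10 were listed for ARVM, 5 higher and 5 lower, around a median of 0.04 (log2). Hspa1b rose from 535 ± 72.5 to 11020.5 ± 1157 normalized counts (SD, n = 3) and Hspa1a from 144 ± 20.7 to 2609.7 ± 324, although these genes are near-identical and the counting could split their reads. Hsph1, a cochaperone, had a log2 fold change of 0.70. Hspb1, a small heat shock protein abundant in muscle, fell from 103771 ± 7698 to 22072 ± 2459, Dnajb4, a cochaperone, from 3017 ± 214 to 1443 ± 327, and Mt1a, a metallothionein, from 7432 ± 1253 to 4942 ± 244. In Cfib DNAJB4 was the 1 gene of this list that was listed, at 0.18 (log2), and its sign turned under the median-of-ratios rescaling.

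**Figure D5:**
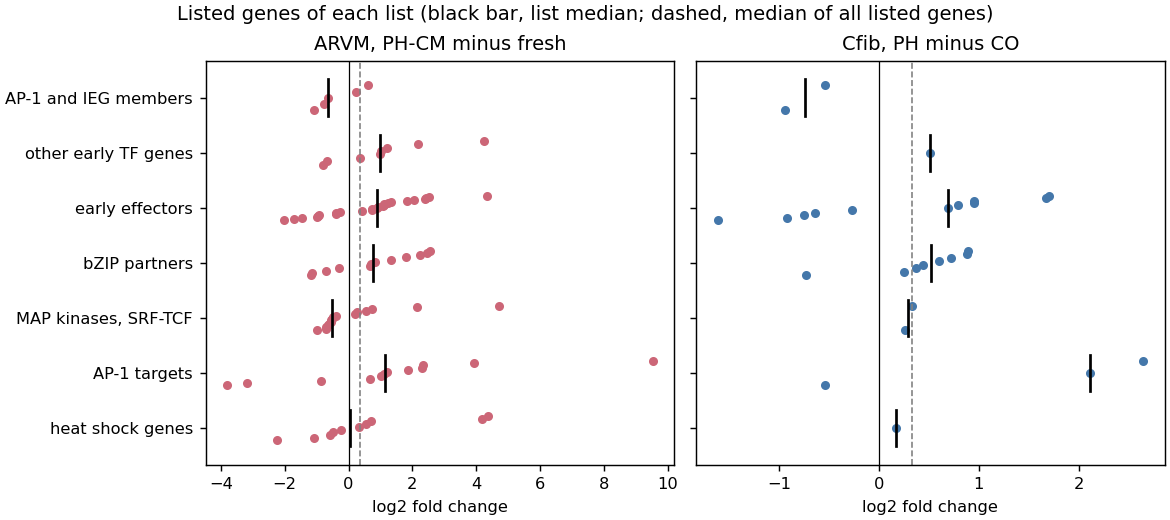
Log2 fold changes of all listed genes of the member list and the 6 pathway lists in ARVM (left) and Cfib (right), with the list median as a black bar and the median of all listed genes as a dashed line (0.37 in ARVM and 0.33 in Cfib). The member list had a median of −0.65 in ARVM, and other early transcription factors, early effectors and AP-1 targets had medians of 0.99, 0.90 and 1.16 (Mmp12 and Mapk13, unread in freshly isolated ARVM, lie at values that depend on the pseudocount).

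The genes nearest in profile to Fos over the 6 ARVM libraries, with the Euclidean distance of centered log2 values in parentheses, were Ints12 (0.12), Dnajb4 (0.13), Map7 (0.15), S1pr1 (0.16), Pcbp3 (0.17), against a median distance of 1.999 over all listed genes. Dnajb4 also stands on the list of heat shock genes. For ATF3 over the 6 Cfib libraries, the nearest were SDC1 (0.16), FIGNL1 (0.19), TM6SF2 (0.23), TRIM34 (0.23), SERTAD4 (0.24), against a median of 1.69. On the deposited signal, SDC1, which encodes the proteoglycan syndecan-1, averaged 91.7 in CO and 47.2 in PH Cfib.

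Count models on the recovered ARVM reads called the same number of members. edgeR called 96.6% of the listed genes (53% higher and 43.7% lower) and DESeq2 94.6% (51.6% higher and 43% lower), with 4 members each.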

How the data were processed

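RNA of 12 libraries was analysed, 6 of ARVM and 6 of Cfib. The authors depleted ribosomal RNA, aligned reads to rn6 or bosTau8 (HISAT2, StringTie), normalized with DESeq2 and deposited genes with a p-value under 0.05 only. The deposited ARVM signal is counts divided by 1 size factor per library, and 100% of values were whole multiples of a step within 0.01 reads. The unit of the deposited Cfib signal is not named, and at most 2.76% of its values in a library were whole multiples of a step within the same tolerance. Levels of different Cfib genes were therefore not ranked. The ratio of ATF3 to JUN was compared between libraries only, and sums of Cfib markers are weighted to the genes with the highest signal.

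Each experiment was fitted on its own in limma 3.58.1 under R 4.3.3, with a variance trend, on log2(value + 1), and p-values were adjusted over each whole table. edgeR 4.0.16 and DESeq2 1.42.0 were run on the recovered reads. Scripts used Python 3.11.15 with scipy 1.17.1 and were tested on simulated data. Alternatives were other pseudocounts, a filter on low values, the median of ratios, no variance trend, leaving out each library, a replicate block (Cfib), a log2 fold change of at least 1 and averaged PH libraries. Libraries of 1 ARVM group differed by more than counting error (chi-square per gene of 11.2 to 38.4). The members and lists were chosen with earlier results of these data known. The text names, per list and direction, up to 3 called genes with the largest change whose higher group mean reached 10, and the 5 genes nearest in profile to the member with the largest change. Genes of the lists that were listed in both tables, marker genes, BATF2, MMP9, NFE2L2 and those marked as such were named after their values were seen.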

Additional observations from a re-analysis of the deposited data

How the results depend on the processing

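The sign of each of the 7 log2 fold changes of members was the same under all alternatives run. The minimum absolute log2 fold change, given further below, is set apart here. Fos (−1.28 to −0.96), Junb (−0.84 to −0.69), Fosl1 (−0.81 to −0.56), Atf3 (0.46 to 0.71) and ATF3 (−1.22 to −0.74) passed the test in each of the other alternatives. Fosl2 (0.17 to 0.30, adjusted p from 0.0583 to 0.310, both limma) passed in none. JUN (−0.82 to −0.42) passed in all but 1 of them. With the PH libraries averaged into 1, a setting chosen after seeing the data that leaves 1 sample in that group, its log2 fold change was −0.54 as before (adjusted p = 0.0650, limma, over a range of 0.000304 to 0.0650), and with fewer samples 1 instead of 2 members and 1038 instead of 2063 Cfib genes were called. By construction, a minimum absolute log2 fold change of 1 left 1 of 4 called members (Fos) and 3405 of 6882 genes in ARVM, and 0 of 2 members and 720 genes in Cfib. Leaving out single libraries gave 6452 to 6695 ARVM and 1910 to 2052 Cfib genes, with 4 and 2 members throughout. edgeR called 6815 and DESeq2 6668 ARVM genes. Deviations of Cfib libraries of equal number correlated at 0.258, 0.0312 and 0.259. Libraries of unequal number were not compared, so these values cannot decide whether equal numbers mean a pairing. With a replicate block 1983 Cfib genes and 2 members passed. No paired analysis was possible for ARVM because its groups share no replicate numbers. The selection of the listed genes, 3 libraries per group and the unknown depth of Cfib limit all of these values.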
